A study of Homo sapiens with 6 samples.

Results

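The human mitochondrial chromosome carries a small set of genes of its own, and the table of 58735 genes lists 37 of them under chromosome MT. They were taken by that chromosome name alone, with no use of their values. By the biotype given in the table, 13 encode proteins, 2 encode ribosomal RNAs and 22 encode transfer RNAs. All 37 have the coordinates and strand of GENCODE 29 on the build GRCh38.

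The genes were measured in A375, an established line of human melanoma cells that carries an activating mutation of the kinase BRAF. One group of 3 libraries came from cells given the solvent DMSO and the other group of 3 from cells given CuB, spelled out as cucurbitacin B in the series title, both for 6 h. Both groups are the same unmodified line, and the labels name no other agent or genotype. The CuB concentration is 0.2 µM in the protocol and 100 nM in the library names, so it is uncertain. Libraries were made from polyadenylated RNA, starting from 1 µg of total RNA, with a kit that does not mark strand. Whether the replicates came from separate cultures is not stated. The p-values therefore reflect only how far these libraries differ from each other, and that spread can be technical.

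Mitochondrial DNA is transcribed from both of its strands into long precursors that cover many genes at once. Most genes lie on the H-strand transcript, and a single mRNA and a minority of the tRNAs lie on the L-strand transcript, here the genes of the minus strand. The tRNAs sit between the mRNAs, and their excision at both ends releases the mRNAs, which mostly then receive a short poly(A) tail. The mRNAs encode core subunits of the respiratory chain and of ATP synthase, the rRNAs form the mitochondrial ribosome, and the tRNAs serve its translation. All other proteins that transcribe, cut, modify and translate these RNAs come from nuclear genes.

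Values are FPKM as deposited, which scale the fragments on a gene by its length and by a library size, and from which whole fragments were recovered. The libraries held 14845976, 15797757 and 15116550 fragments on genes in DMSO and 15502971, 16072462 and 16137093 in CuB. These totals overlapped (exact two-sided permutation p = 0.2), and 3 against 3 cannot give a p under 0.1, so a difference in depth could not have passed the threshold. One library of each group stood apart. The deviation of a library from its group mean followed GC content across genes, with Spearman correlations of -0.542, 0.774 and -0.703 in DMSO 1, 2 and 3 and -0.667, 0.262 and 0.648 in CuB 1, 2 and 3, so DMSO 2 and CuB 1 were each opposite in sign to their 2 partners. Every pair of replicates differed beyond counting noise. Of 10 melanoma and neural crest markers, 7 were at 1 FPKM or more in every library, with SOX10 at 162 to 256 FPKM, and all leukocyte, endothelial and erythroid markers were under 1 FPKM. The pigment cell markers PMEL and TYR of the melanoma list were also under 1 FPKM in every library, as were 3 of 4 epithelial markers, the other being KRT14 at up to 2.67 FPKM.

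After 6 h of CuB most mitochondrial mRNAs were lower, the rRNAs did not pass the test in either direction, and a minority of the tRNAs were higher. The test was limma's moderated test on log2(FPKM + 1) over the 13273 genes whose mean was 1 FPKM or more, with Benjamini-Hochberg adjustment over all of them at 0.05. Of the mitochondrial genes 35 passed that minimum, and 14 of the 35 were called, a share close to the 38.6% called among all tested genes. Of the 13 mRNAs, 8 fell and 0 rose. Among all tested genes 15.6% fell. Of the 20 tested tRNAs, 6 rose and 0 fell, beside 22.9% of all tested genes that rose. The median log2 difference was -0.38 for the mRNAs, 0.13 for the rRNAs and 0.25 for the tested tRNAs, with 0.05 for all tested genes. No mRNA was higher, no rRNA differed and no tRNA was lower even at an unadjusted p under 0.05, for which the counts were 0, 0 and 0 with limma and 0, 0 and 0 called with limma-voom on the recovered fragments. In that limma-voom fit 9 mRNAs fell and only 3 tRNAs rose. The groups did not overlap for 9 mRNAs, 8 lower and 1 higher with CuB, and for 5 tRNAs, all higher, as for 51.5% of all tested genes. Without the DMSO 2 library, 9 mRNAs fell and 5 tRNAs rose, and without CuB 1 the counts were also 9 and 5. Over all libraries left out in turn, the mRNAs that fell ranged from 5 to 9. With no filter on low values MT-CYB was the 1 mRNA still called, and with quantile normalization 4 mRNAs were called lower.

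**Figure D1:**
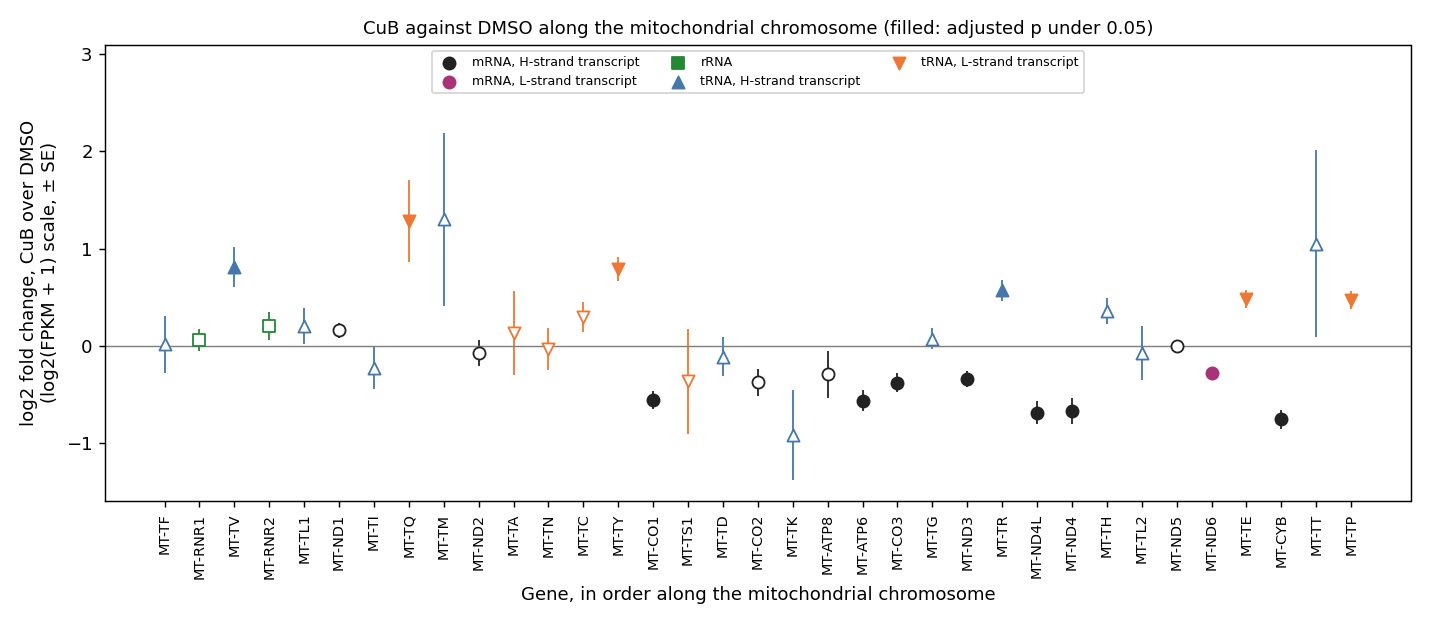
Each point is 1 of the 35 tested mitochondrial genes, placed in chromosome order, with its log2 difference of CuB over DMSO (bars are standard errors) and filled where the adjusted p is under 0.05. The filled mRNAs lie between -0.76 and -0.28, below the line at 0, and the filled tRNAs lie between 0.47 and 1.28, above it.

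The mitochondrial genes are among the most abundant in the table. They held 9 of the 10 highest mean FPKM values, led by MT-CO1 at rank 1, and together took 15.9%, 13.4% and 16.2% of the FPKM sum of the DMSO libraries. In the CuB libraries they took 11.7%, 10.3% and 9.89%. As a share of fragments they took 3.87%, 3.25% and 3.91% in DMSO and 2.70%, 2.34% and 2.25% in CuB, with Wilson 95% intervals of at most 0.0098 percentage points to either side, which cover counting error only. All 3 CuB shares lay below all 3 DMSO shares. The mRNAs made up nearly all of this, with 549001, 491831 and 563629 fragments in DMSO and 390683, 350079 and 340217 in CuB. The rRNA fragments overlapped between groups, at 23710, 20329 and 26635 in DMSO and 27057, 24802 and 22268 in CuB. In bulk RNA, fewer cells rich in mitochondrial RNA and less of it per cell cannot be told apart. Nor can a smaller part of it caught by the poly(A) tail, or more RNA of nuclear genes, which also lowers a share.

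The balance of the RNA classes inside the mitochondrial fraction does not depend on how libraries are scaled against each other. The ratio of rRNA to mRNA fragments was 0.0432, 0.0413 and 0.0473 in DMSO and 0.0693, 0.0708 and 0.0655 in CuB. For every 1000 mRNA fragments there were 2.13, 2.12 and 2.12 tRNA fragments in DMSO and 3.57, 3.66 and 3.70 in CuB. Neither ratio overlapped between the groups, the tRNA ratio being 1.72 times as high in the CuB mean and the rRNA ratio 1.56 times. As a share of all fragments, however, tRNA overlapped, at 0.0066% to 0.0079% in DMSO and 0.0078% to 0.0090% in CuB. Libraries made from polyadenylated RNA catch rRNA and tRNA only in part, so these are levels of the captured molecules. Fragments on a tRNA gene can come from the mature tRNA or from an RNA not yet cut at it, which cannot be told apart here.

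**Figure D2:**
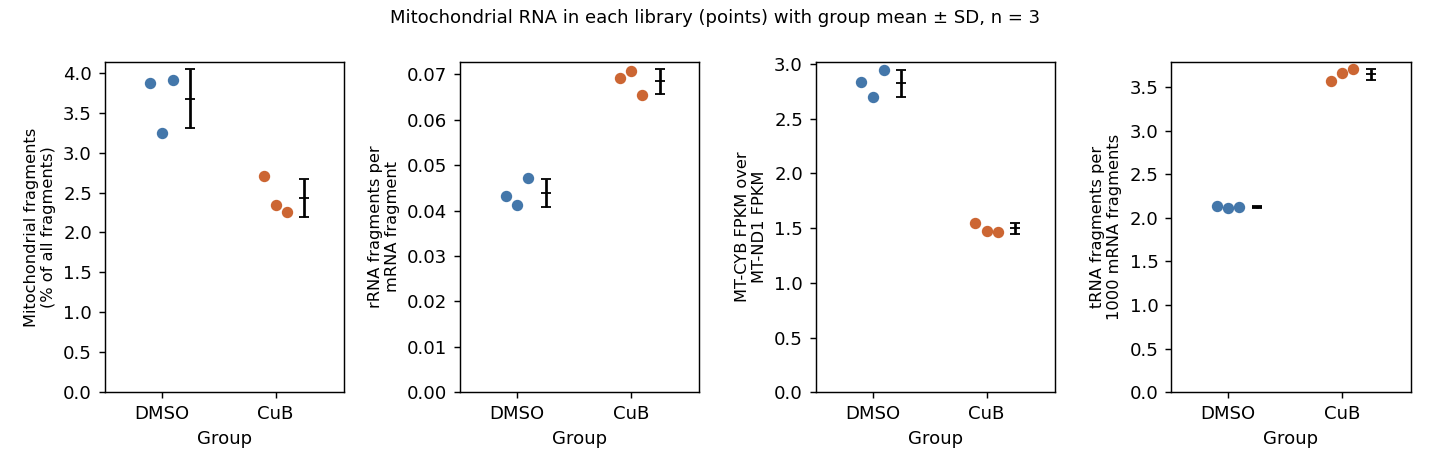
The 4 panels show 1 point per library, with the group mean and SD (n = 3) beside it, for the percent of fragments on mitochondrial genes, the ratio of rRNA to mRNA fragments, the ratio of MT-CYB to MT-ND1 FPKM, and tRNA fragments per 1000 mRNA fragments. The groups separate in each panel, with CuB lower for the percent of fragments (2.25% to 2.70% against 3.25% to 3.91%) and for MT-CYB to MT-ND1, and higher for both other ratios.

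The 2 rRNA genes open the H-strand transcript. MT-RNR1 (MT:648-1601) encodes the RNA of the small mitochondrial ribosomal subunit. It was at 302, 265 and 353 FPKM in DMSO and 342, 316 and 294 in CuB. The groups overlapped, with a log2 difference of 0.06 ± 0.11 (SE, n = 3 per group) and a limma adjusted p of 0.730. MT-RNR2 (MT:1671-3229) encodes the RNA of the large subunit. It was at 806, 634 and 879 FPKM in DMSO and 1016, 876 and 775 in CuB, also overlapping, with a difference of 0.21 ± 0.14 and an adjusted p of 0.295. With equal fragment totals in place of the deposited scaling the difference of MT-RNR1 was -0.11, so its sign is not settled.

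These libraries were selected by the poly(A) tail, and in part of the genes the tail also completes the stop codon. The last 24 bases of 8 protein-coding genes as annotated follow, read from GRCh38 on the coding strand, with the encoded part of the stop codon in capitals, to set coding ends that need the tail beside ends that do not. They are ends of the coding sequence. The mRNAs of MT-CO1, MT-ND5 and MT-ND6 are known to run on past them.
MT-ND1, MT:4239-4262, plus strand: ctccagcattccccctcaaaccTA
MT-ND2, MT:5488-5511, plus strand: ccccttttatactaataatcttaT
MT-CO1, MT:7422-7445, plus strand: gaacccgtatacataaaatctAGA
MT-CO3, MT:9967-9990, plus strand: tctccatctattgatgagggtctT
MT-ND4, MT:12114-12137, plus strand: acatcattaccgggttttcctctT
MT-ND5, MT:14125-14148, plus strand: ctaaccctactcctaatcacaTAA
MT-ND6, MT:14149-14172, minus strand: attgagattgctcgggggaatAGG
MT-CYB, MT:15864-15887, plus strand: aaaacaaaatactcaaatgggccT
As annotated, 6 of the genes end with an incomplete stop codon (MT-ND1, MT-ND2, MT-CO3, MT-ND3, MT-ND4 and MT-CYB) and 7 with a complete one. MT-ATP6 is among the 7, but the last base of its stop codon, MT:9207, is also the first base of MT-CO3. The split therefore goes by annotated ends and not by the ends of the mRNAs. Of the 6, 4 fell and 2 were not called, and of the 7, 4 fell and 3 were not called. Of all tested genes 15.6% fell.

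MT-ND1 (MT:3307-4262) and MT-ND2 (MT:4470-5511), the first mRNAs of the H-strand transcript, encode subunits of complex I, which takes electrons from NADH. MT-ND1 was at 810, 722 and 798 FPKM in DMSO and 935, 832 and 832 in CuB. All 3 CuB values were above all 3 DMSO values, the single mRNA with that order, but the difference of 0.16 ± 0.07 did not pass (adjusted p = 0.141) and was -0.01 with equal fragment totals. MT-ND2 was at 2510, 1996 and 2506 FPKM in DMSO and 2621, 2052 and 1979 in CuB. Its groups overlapped, with a difference of -0.08 ± 0.13 and an adjusted p of 0.670.

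The 3 genes of complex IV, which passes electrons to oxygen, come next with the ATP synthase genes between them. MT-CO1 (MT:5904-7445) encodes the catalytic subunit and had the highest mean FPKM of the table. It was at 5811, 5021 and 5822 FPKM in DMSO and 4173, 3594 and 3531 in CuB, with all CuB values lower. It fell by 0.56 on the log2 scale (SE 0.09, adjusted p = 0.00294), to 0.678 times the DMSO mean. The call was lost with no filter (adjusted p = 0.254) and with quantile normalization (-0.05, adjusted p = 0.305). MT-CO2 (MT:7586-8269), the subunit that receives electrons from cytochrome c, was at 3373, 2752 and 3487 FPKM in DMSO and 2929, 2373 and 2123 in CuB. One CuB library lay above one DMSO library, and the difference of -0.38 ± 0.14 did not pass (adjusted p = 0.0668). It passed without DMSO 2 (-0.48, adjusted p = 0.0269), without CuB 1 (-0.51, adjusted p = 0.0211) and with equal fragment totals (-0.54, adjusted p = 0.0173). MT-CO3 (MT:9207-9990), another core subunit, was at 5104, 4386 and 5296 FPKM in DMSO and 4236, 3602 and 3494 in CuB. Its groups did not overlap, and it fell by 0.38 (SE 0.10, adjusted p = 0.0207). That call was lost without DMSO 1 (adjusted p = 0.0724), DMSO 3 (adjusted p = 0.0638), CuB 2 (adjusted p = 0.0730) or CuB 3 (adjusted p = 0.0651), and with no filter (adjusted p = 0.446). With quantile normalization its sign turned (0.13, adjusted p = 0.0727).

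MT-ATP8 and MT-ATP6 encode the membrane subunits of ATP synthase and share an mRNA. Their reading frames overlap by the 46 bases at MT:8527-8572, shown with the MT-ATP6 start codon and the MT-ATP8 stop codon in capitals because fragments over these bases fit both genes.
MT-ATP8 and MT-ATP6, shared bases, plus strand: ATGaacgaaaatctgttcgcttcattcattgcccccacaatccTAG
MT-ATP6 (MT:8527-9207) was at 5050, 4279 and 5128 FPKM in DMSO and 3729, 3116 and 2939 in CuB. Its groups did not overlap and it fell by 0.57 (SE 0.11, adjusted p = 0.00665). With no filter the call was lost (adjusted p = 0.235), and with quantile normalization the difference was 0.03 (adjusted p = 0.568). MT-ATP8 (MT:8366-8572) was listed far lower, at 80.6, 152 and 85.1 FPKM in DMSO and 90.01, 71.8 and 86.3 in CuB, with a difference of -0.30 ± 0.24 and an adjusted p of 0.361. The ratio of MT-ATP6 to MT-ATP8 FPKM was 62.7, 28.2 and 60.3 in DMSO and 41.4, 43.4 and 34.1 in CuB. For genes of one mRNA that gap is large, and the DMSO 2 library differs from the other DMSO libraries by more than the groups differ. How fragments over shared bases were counted is not given in the sources used here, so the MT-ATP8 level is uncertain.

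The second stretch of complex I genes runs from MT-ND3 to MT-ND5. MT-ND3 (MT:10059-10404), a small membrane subunit, was at 1646, 1879 and 1736 FPKM in DMSO and 1348, 1292 and 1509 in CuB. All CuB values were lower, and it fell by 0.34 (SE 0.08, adjusted p = 0.0139), a call that was lost without CuB 2 (adjusted p = 0.0549), with no filter (adjusted p = 0.248) and with quantile normalization (-0.27, adjusted p = 0.330). MT-ND4L (MT:10470-10766) and MT-ND4 (MT:10760-12137) encode membrane subunits and share a second mRNA. Their frames overlap by 7 bases, in capitals in the last 24 bases of MT-ND4L.
MT-ND4L, MT:10743-10766, plus strand: aacctaaacctactccaATGCTAA
MT-ND4L was at 2726, 2179 and 2820 FPKM in DMSO and 1781, 1488 and 1504 in CuB. It fell by 0.69 (SE 0.12, adjusted p = 0.00400). MT-ND4 was at 5435, 4194 and 5388 FPKM in DMSO and 3614, 2990 and 2790 in CuB. It fell by 0.68 (SE 0.13, adjusted p = 0.00719), and neither gene's groups overlapped. With no filter both calls were lost (adjusted p = 0.0834 for MT-ND4L and 0.184 for MT-ND4), and with quantile normalization that of MT-ND4 (-0.10, adjusted p = 0.156). The ratio of MT-ND4 to MT-ND4L FPKM, 1.99, 1.92 and 1.91 in DMSO and 2.03, 2.01 and 1.86 in CuB, overlapped between groups, so the genes of this mRNA fell side by side. MT-ND5 (MT:12337-14148), for another membrane subunit, follows them after 3 tRNA genes. It was at 1039, 928 and 1049 FPKM in DMSO and 986, 1014 and 994 in CuB. The groups overlapped, with a difference of -0.01 ± 0.06 and an adjusted p of 0.927. In 1 of the 21 alternatives, quantile normalization, MT-ND5 was called lower (-0.38, adjusted p = 0.00101).

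MT-CYB (MT:14747-15887), the only subunit of complex III encoded here, is the last mRNA of the H-strand transcript and had the lowest log2 difference of the mRNAs. It was at 2297, 1947 and 2347 FPKM in DMSO and 1450, 1227 and 1218 in CuB, with the highest CuB value well under the lowest DMSO value. It fell by 0.76 (SE 0.10, adjusted p = 0.00142), to 0.591 times the DMSO mean. It was called in all 21 alternative settings, with a log2 difference from -0.94 to -0.68.

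MT-ND6 (MT:14149-14673, minus strand), a membrane subunit of complex I, is the mRNA of the L-strand transcript. It was at 531, 536 and 502 FPKM in DMSO and 406, 431 and 453 in CuB. All CuB values were lower and it fell by 0.28 (SE 0.07, adjusted p = 0.0141). The call was lost without DMSO 1 (adjusted p = 0.0651) or CuB 2 (adjusted p = 0.0553) and with no filter (adjusted p = 0.120). Relative to the H-strand mRNAs its level was 1.48%, 1.76% and 1.38% in DMSO and 1.45%, 1.82% and 1.97% in CuB, which overlapped. Without strand, fragments of MT-ND6 and of the H-strand RNA across the same bases cannot be told apart, and this holds for the tRNAs of the minus strand too.

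**Figure D3:**
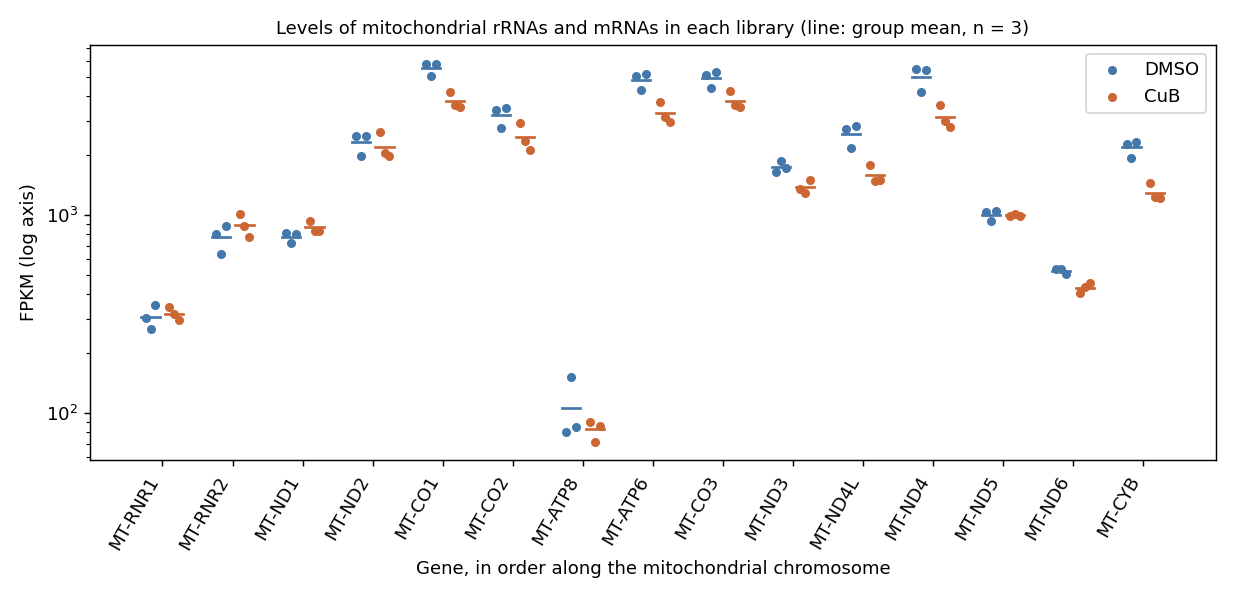
FPKM (log axis) of the rRNAs and mRNAs in each library, in chromosome order, with group means as lines (n = 3). The CuB points lie below the DMSO points without overlap for MT-CO1, MT-ATP6, MT-CO3, MT-ND3, MT-ND4L, MT-ND4, MT-ND6 and MT-CYB, while MT-ND5 is at 986 to 1014 FPKM in CuB and 928 to 1049 in DMSO.

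Relative to each other, the mRNAs differed in both directions. Of the 13 mRNAs, 4 took a higher share of mitochondrial mRNA fragments in every CuB library than in any DMSO library, 5 took a lower share, and 4 overlapped. MT-ND1 went from 2.17%, 2.30% and 2.11% of the mRNA fragments to 3.24%, 3.38% and 3.49%. MT-ND2 went from 7.31%, 6.92% and 7.23% to 9.91%, 9.09% and 9.06%, and MT-ND5 from 5.27%, 5.60% and 5.27% to 6.48%, 7.81% and 7.91%. The fourth with a higher share, MT-CO3, differed little, at 11.38% ± 0.17 and 12.03% ± 0.02 (SD, n = 3). MT-CYB went from 7.33%, 7.40% and 7.42% to 6.00%, 5.95% and 6.11%. The others with a lower share were MT-CO1 (25.2% to 23.6% in the means), MT-ATP6 (9.66% to 9.01%), MT-ND4L (2.25% to 1.92%) and MT-ND4 (20.3% to 17.5%). These shares are free of the scaling between libraries and carry no test.

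**Figure D4:**
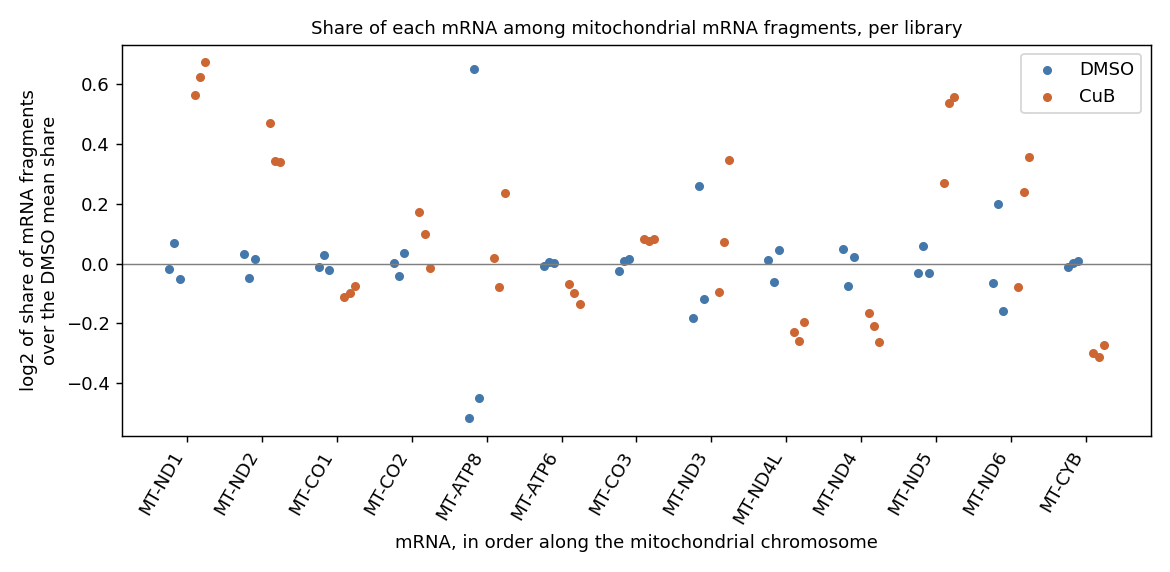
The log2 ratio of each mRNA's share of mitochondrial mRNA fragments to its mean share in DMSO, 1 point per library, in chromosome order. MT-ND1, MT-ND2 and MT-ND5 lie above all DMSO points in CuB, and MT-ND4L, MT-ND4 and MT-CYB below them, while the DMSO points of MT-ATP8 spread wider than the groups differ.

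Grouped by respiratory complex, the shares of summed mRNA FPKM differed by little except for complex III. Complex I, with 7 genes of which 4 fell, took 40.4%, 40.2% and 40.0% in DMSO and 41.3%, 41.9% and 42.9% in CuB. Complex III, which is MT-CYB alone, took 6.31%, 6.29% and 6.35% in DMSO and 5.12%, 5.10% and 5.20% in CuB. Its CuB mean was 0.814 times its DMSO mean. Complex V took 14.1%, 14.3% and 14.1% in DMSO and 13.5%, 13.2% and 12.9% in CuB. These shares did not overlap between groups, and the share of complex IV, at 39.3% ± 0.2 in DMSO and 39.6% ± 0.5 in CuB, did.

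Along the H-strand transcript, with the deposited scaling, the rRNAs, MT-ND1 and MT-ND2 had higher log2 differences than every later mRNA except MT-ND5. From MT-CO1 on the differences did not fall steadily, with MT-CO1 at -0.56, MT-ND3 at -0.34 and MT-CYB at -0.76. The tested tRNAs of the plus strand, with a median of 0.14 and a range from -0.92 to 1.30, are not in the correlations that follow. Across the 12 H-strand mRNAs the difference and the start position had a Pearson correlation of -0.554 and a Spearman correlation of -0.531, and across the 14 H-strand rRNAs and mRNAs these were -0.715 and -0.692. The genes share precursors and libraries, so these are descriptions. With the deposited scaling MT-ND5 departs from its neighbours, near 0 between MT-ND4 and MT-CYB, but with quantile normalization it was at -0.38. The correlation with GC content was 0.05 over the 12 mRNAs, whose GC content spans 39.6% to 47.7%, and with length it was 0.13. With mean FPKM the Pearson and Spearman correlations were -0.411 and -0.517 over the 12 mRNAs and -0.517 and -0.640 over the 14 genes, so by rank the differences followed abundance about as closely as position. The ratio of MT-CYB, last of the mRNAs, to MT-ND1, the first, was 2.84, 2.70 and 2.94 in DMSO and 1.55, 1.48 and 1.47 in CuB. The FPKM of the last 6 H-strand mRNAs over the first 6 was 1.04, 1.04 and 1.05 in DMSO and 0.927, 0.965 and 1.002 in CuB, also without overlap. Between neighbours the ratio of MT-ND5 to MT-CYB FPKM was 0.452, 0.477 and 0.447 in DMSO and 0.680, 0.826 and 0.816 in CuB.

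The tRNA genes, 59 to 75 bases long, held few fragments, and 14 of the 22 had under 30 in every library. MT-TW (0, 0 and 1 in DMSO, 3, 0 and 0 in CuB) and MT-TS2 (0, 0 and 0 in DMSO, 0, 1 and 0 in CuB) were under the minimum for the test. The 6 tRNAs that rose are printed whole from GRCh38, 5' to 3' on their own strand with the anticodon in capitals, as the mitochondrial RNAs with the opposite call to the mRNAs.
MT-TV, valine, MT:1602-1670, plus strand: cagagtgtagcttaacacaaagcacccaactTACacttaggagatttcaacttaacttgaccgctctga
MT-TQ, glutamine, MT:4329-4400, minus strand: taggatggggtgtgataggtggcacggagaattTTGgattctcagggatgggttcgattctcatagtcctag
MT-TY, tyrosine, MT:5826-5891, minus strand: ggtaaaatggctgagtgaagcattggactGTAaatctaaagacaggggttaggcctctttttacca
MT-TR, arginine, MT:10405-10469, plus strand: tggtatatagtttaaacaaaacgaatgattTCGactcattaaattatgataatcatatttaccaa
MT-TE, glutamate, MT:14674-14742, minus strand: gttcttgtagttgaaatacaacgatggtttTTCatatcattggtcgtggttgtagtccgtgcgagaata
MT-TP, proline, MT:15956-16023, minus strand: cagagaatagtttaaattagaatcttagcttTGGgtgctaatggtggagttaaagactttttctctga

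MT-TY, in the cluster between MT-ND2 and MT-CO1, held 54, 67 and 63 fragments in DMSO and 99, 114 and 85 in CuB. All CuB values were higher, and it rose by 0.79 on the log2(FPKM + 1) scale (SE 0.12, adjusted p = 0.00309). MT-TR, between MT-ND3 and MT-ND4L, held 68, 71 and 58 fragments in DMSO and 98, 84 and 91 in CuB. It rose by 0.57 (SE 0.11, adjusted p = 0.00612), although the mRNAs on both sides of it fell. MT-TP, at the end of the gene-bearing part of the chromosome, held 162, 167 and 157 fragments in DMSO and 232, 200 and 196 in CuB. It rose by 0.47 (SE 0.10, adjusted p = 0.00897), a call lost with quantile normalization (adjusted p = 0.0639). MT-TE, between MT-ND6 and MT-CYB, held only 15, 15 and 13 fragments in DMSO and 17, 20 and 20 in CuB. It rose by 0.48 (SE 0.09, adjusted p = 0.00673), but the call was lost with limma-voom on the fragments (adjusted p = 0.228). Its SE is under the counting error of the log2 ratio of its summed fragments, 0.29. The SEs of MT-TY and MT-TR are also under their counting errors, 0.14 and 0.13, while that of MT-TP is above its own, 0.09.

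The other risen tRNAs rest on fewer fragments or on single libraries. MT-TV, between the rRNAs, held 13, 9 and 16 fragments in DMSO and 19, 24 and 20 in CuB. It rose by 0.81 (SE 0.21, adjusted p = 0.0202), a call lost in 4 of 21 alternatives, which were without CuB 2 (adjusted p = 0.0754), no filter (adjusted p = 0.0604), quantile normalization (adjusted p = 0.0534) and limma-voom (adjusted p = 0.0832). MT-TQ held 7, 2 and 2 fragments in DMSO and 12, 6 and 9 in CuB, so its groups overlapped. It rose by 1.28 (SE 0.42, adjusted p = 0.0486) and lost the call in 13 of 21 alternatives, which include leaving out DMSO 2 (adjusted p = 0.109), DMSO 3 (adjusted p = 0.131), CuB 1 (adjusted p = 0.129), CuB 2 (adjusted p = 0.0566) or CuB 3 (adjusted p = 0.104). The SEs of MT-TV and MT-TQ are under their counting errors too, 0.30 and 0.52. MT-TY and MT-TR were called in all 21.

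The tRNA with the most fragments, MT-TC for cysteine, held 355, 269 and 338 in DMSO and 417, 344 and 335 in CuB. It overlapped and did not pass (0.30 ± 0.16, adjusted p = 0.177). MT-TH, for histidine, lies just after MT-ND4 and held 105, 100 and 132 fragments in DMSO and 115, 145 and 140 in CuB (0.35 ± 0.13, adjusted p = 0.0750). MT-TN, for asparagine, held 168, 102 and 146 in DMSO and 141, 110 and 120 in CuB (-0.04 ± 0.21, adjusted p = 0.907). The 14 tested tRNAs that were not called had log2 differences from -0.92 to 1.30, with standard errors from 0.11 to 0.96. By strand, 2 of 12 tested tRNAs of the plus strand and 4 of 8 of the minus strand rose. Of all tested genes 22.9% rose. The kit does not mark strand, and of the 4, MT-TQ and MT-TE rest on few fragments. How fragments that reach from a tRNA into a neighbouring gene were counted is not given in the sources used here, and its part in these values was not tested.

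**Figure D5:**
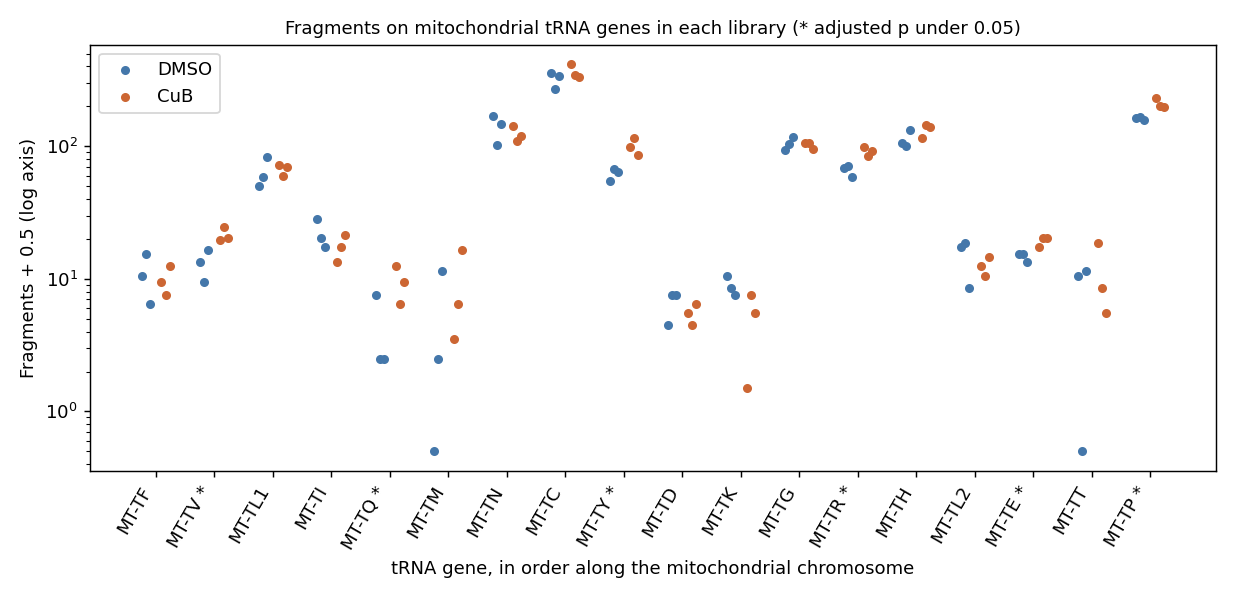
Fragments plus 0.5 on a log axis for the 18 tRNA genes with at least 30 fragments over all libraries, 1 point per library. Asterisks mark the 6 that rose, of which MT-TY goes from 54 to 67 fragments in DMSO to 85 to 114 in CuB, while MT-TQ stays at 12 or fewer in every library.

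Copies of mitochondrial DNA in the nuclear genome can take fragments from the genes above. The table lists 407 such pseudogenes, of which 319 had 0 fragments in every library and 3 passed the minimum for the test. MTATP6P1, 98.5% identical to MT-ATP6 over its length, was at 264 FPKM ± 48 in DMSO and 153 ± 16 in CuB (SD, n = 3) and fell by 0.77 (adjusted p = 0.00719). MTCO1P12, 98.6% identical to MT-CO1, was at 16.4 ± 1.5 and 10.9 ± 1.5 FPKM and fell by 0.55 (adjusted p = 0.0113). MTND2P28, 98.2% identical to MT-ND2, was at 138 ± 19 and 126 ± 14 FPKM and did not pass (-0.13, adjusted p = 0.449). The mitochondrial genes they copy had log2 differences of -0.57 (MT-ATP6), -0.56 (MT-CO1) and -0.08 (MT-ND2). All copies together held from 0.916% to 1.08% as many fragments as the mitochondrial genes, in ranges that overlapped between groups. Set against the gene it copies, MTND2P28 held 5.32% to 6.37% as many fragments and MTATP6P1 4.37% to 5.90%. For MTCO1P12 this was 0.258% to 0.348%. With such identity their fragments cannot be told apart with certainty from mitochondrial ones.

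The nuclear genes that serve these RNAs were taken as lists by function. Of the 151 tested genes of the lists, 32 (21.2%) rose and 9 (6.0%) fell with the deposited scaling, where 22.9% and 15.6% of all tested genes did, so the share that rose was near that of the table. But 13 rose and 24 fell with equal fragment totals, a scaling that moved the median log2 difference of all genes by -0.14. Over all tested genes the same change took the calls from 3046 higher and 2072 lower to 2010 and 3136. Leaving out a library gave 14 risen (without DMSO 1), 15 (without CuB 2), 18 (without CuB 3), 20 (without DMSO 3), 24 (without CuB 1) or 37 (without DMSO 2), and from 3 to 10 fallen. Genes named below as risen or fallen kept that call in every alternative unless stated. Where a call was lost, the libraries left out are given, and the other settings only in part.

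Of 10 genes of mitochondrial transcription, 3 fell and 0 rose (0 at an unadjusted p under 0.05, and 0 with limma-voom), with a median log2 difference of 0.08. Among all tested genes 15.6% fell and 22.9% rose, and with equal fragment totals the counts of the list were the same. POLRMT, the RNA polymerase, was at 16.5 ± 5.2 FPKM in DMSO and 19.5 ± 4.7 in CuB (SD, n = 3; adjusted p = 0.468). TFAM, which packages mitochondrial DNA and starts its transcription, was at 18.6 ± 2.4 and 21.3 ± 2.7 FPKM (adjusted p = 0.296). TFB2M, the initiation factor, was at 56.4 ± 1.2 and 62.4 ± 4.4 (adjusted p = 0.191), and TEFM, the elongation factor, at 3.24 ± 0.40 and 2.79 ± 0.23 (adjusted p = 0.282). The genes that fell were MTERF1, which binds within the tRNA gene after the rRNAs (-0.55, adjusted p = 0.0217), its relative MTERF2 (-0.33, adjusted p = 0.0436) and TFB1M, a methyltransferase of the small rRNA (-0.24, adjusted p = 0.0490). None of these 3 calls held throughout. MTERF1 was called in 16 of 21 alternatives (adjusted p up to 0.0809, lost without DMSO 1, DMSO 3, CuB 2 or CuB 3), MTERF2 in 12 of 20 (up to 0.133, lost without any library but DMSO 2) and TFB1M in 10 of 21 (up to 0.162, lost without any library but CuB 1).

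Of 13 tested genes that cut and process the precursors, 1 rose and 1 fell, with a median of 0.07, and with equal fragment totals 0 and 2. TBRG4, which is needed for certain mature mRNAs, rose by 0.45 (adjusted p = 0.0228), and FASTKD1, of the same family, fell by 0.33 (adjusted p = 0.0452). TBRG4 was called in 12 of 21 alternatives (adjusted p up to 0.120) and FASTKD1 in 12 of 20 (up to 0.148), and both were lost without DMSO 1, DMSO 3, CuB 2 or CuB 3, and FASTKD1 also without CuB 1. Quantile normalization lost both calls too, and equal fragment totals that of TBRG4 (adjusted p = 0.0971). Of 10 genes of RNA stability, polyadenylation and decay, 5 rose and 1 fell, with a median of 0.28, beside 22.9% and 15.6% of all tested genes. With equal fragment totals 1 rose and 1 fell. NSUN4, a methyltransferase of the small rRNA that also acts in ribosome assembly, rose from 4.66 ± 0.51 to 8.30 ± 0.40 FPKM (0.72, adjusted p = 0.00150). REXO2, an exonuclease that degrades very short RNAs, fell from 17.9 ± 1.1 to 11.6 ± 1.3 FPKM (-0.59, adjusted p = 0.00449). The helicase of RNA decay SUPV3L1 (0.37, adjusted p = 0.0128) and the poly(A) polymerase MTPAP (0.36, adjusted p = 0.0330) rose. SUPV3L1 was called in 16 of 21 alternatives (adjusted p up to 0.0897, lost without DMSO 1 or CuB 2) and MTPAP in 9 of 20 (up to 0.156, lost without any library but DMSO 3). Both calls were also lost with quantile normalization and with equal fragment totals (adjusted p = 0.0702 for SUPV3L1 and 0.127 for MTPAP). LRPPRC, which stabilises the mRNAs, was at 32.2 ± 5.5 and 34.5 ± 3.3 FPKM and did not pass (adjusted p = 0.580).

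Of 24 genes listed for the modification of mitochondrial RNA, 10 rose and 1 fell, with a median of 0.27, beside 22.9% and 15.6% of all tested genes. With equal fragment totals 7 rose and 3 fell. MTO1, which modifies the wobble base of tRNAs, rose from 1.57 ± 0.07 to 3.68 ± 0.10 FPKM (0.86, adjusted p = 0.000501). PUS1, a pseudouridine synthase, rose from 7.35 ± 1.28 to 14.3 ± 2.7 FPKM (0.87, adjusted p = 0.00622), and YRDC, which acts in the modification of adenosine beside the anticodon, from 26.9 ± 3.6 to 46.3 ± 6.6 FPKM (0.76, adjusted p = 0.00502). TRUB2, a pseudouridine synthase, fell by 0.25 (adjusted p = 0.0356), and was called in 15 of 21 alternatives (adjusted p up to 0.130, lost without any library but DMSO 2). Of 18 genes of mitochondrial DNA replication and upkeep, 6 rose and 1 fell, with a median of 0.21, beside the same shares. With equal fragment totals 2 rose and 3 fell. ATAD3B, of a membrane protein family tied to nucleoids, rose by 0.96 (adjusted p = 0.00436) and POLG, the DNA polymerase, by 0.72 (adjusted p = 0.00455). The helicase TWNK rose by 0.40 (adjusted p = 0.0159) and the thymidine kinase TK2 fell by 0.34 (adjusted p = 0.0372). TWNK was called in 14 of 21 alternatives (adjusted p up to 0.150, lost without DMSO 1, DMSO 3, CuB 2 or CuB 3) and TK2 in 11 of 20 (up to 0.139, lost without any 1 library). Quantile normalization lost both calls too, and equal fragment totals that of TWNK (adjusted p = 0.09445).

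Of 77 tested mitochondrial ribosomal proteins, 10 rose and 2 fell, both under the 22.9% and 15.6% of all tested genes, with a median of 0.12 beside 0.05 for all genes. MRPL54 rose by 0.74 (adjusted p = 0.00604), MRPL9 by 0.55 (adjusted p = 0.00384) and MRPL58, a large subunit protein that acts as a peptidyl-tRNA hydrolase, by 0.54 (adjusted p = 0.00300). MRPS6 fell from 13.3 ± 1.1 to 7.22 ± 0.06 FPKM (-0.80, adjusted p = 0.000584) and MRPL34 from 30.1 ± 5.9 to 17.5 ± 1.9 FPKM (-0.74, adjusted p = 0.00784). With equal fragment totals 3 ribosomal protein genes rose and 12 fell, so the list has no settled direction.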

How the data were processed

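Per the labels, polyadenylated RNA of 3 DMSO and 3 CuB libraries was sequenced, and the authors deposited FPKM values for 58735 genes. Per the submitters' processing notes, the genome build was GRCh38. Aligner, counter and scaling: not given in the sources used here. Whole fragments were recovered from the spacing of low FPKM values and each gene's length, with 100% of values whole to within 0.01 fragments. The library size implied by FPKM was 1.03 to 1.04 times the fragment total in DMSO and 0.914 to 0.927 times in CuB, so equal fragment totals were tried as another scaling.

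Values were tested as log2(FPKM + 1) with limma 3.58.1 in R 4.3.3, with an intensity trend, 4 residual degrees of freedom and no covariate, over the 13273 genes whose mean was 1 FPKM or more. The step was also run on simulated counts that held no GC-linked deviation, so that run cannot show how it performs on these libraries. Adjusted p-values are Benjamini-Hochberg over all tested genes. Plots used Python 3.11.15 and matplotlib 3.10.9, and copies were aligned with Biopython 1.88.

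The members, the lists and the rules were chosen with earlier results of these data known. The text names each mRNA and rRNA, the tRNAs called or among the 4 most abundant, and up to 3 risen and 3 fallen genes of each list whose groups do not overlap. POLRMT, TFAM, TFB2M, TEFM and LRPPRC are always named, as are the 3 most abundant nuclear copies. Gene roles are background knowledge. There were 21 alternatives, which changed the pseudocount, filter, scaling, model, replicate block, GC correction or left out a library, and 0 columns of sample values stayed unused.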

Additional observations from a re-analysis of the deposited data

How the results depend on the processing

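Over 21 alternatives and 21 mitochondrial genes named with a test, 380 of 441 gene results kept direction and side of the threshold. In every alternative no mRNA was called higher and no tRNA lower (0 and 0). With no filter on low values, 5 mitochondrial genes were called, of which 1 was an mRNA that fell (MT-CYB), and 4 listed nuclear genes fell. At a minimum mean of 5 FPKM, 3250 of all genes were called, with fewer genes tested. Quantile normalization, which gives every library the same set of values and so ties the top ranks that mitochondrial genes hold, left 7 mitochondrial calls (4 mRNAs lower, 3 tRNAs higher) and log2 differences of -0.0134 for MT-RNR1, -0.0762 for MT-RNR2, -0.0913 for MT-ND1, 0.0459 for MT-ND2, 0.0279 for MT-ATP6 and 0.131 for MT-CO3, with 12 listed genes higher and 18 lower. Rescaling each library to the same sum (TPM) gave 19 higher and 16 lower and -0.0475 for MT-RNR1. Equal fragment totals gave 13 and 24, -0.110 for MT-RNR1 and -0.0089 for MT-ND1. Equal totals over nuclear genes gave 12 and 24, -0.128 and -0.0274, with 9 mRNAs lower and 5 tRNAs higher in each of these 3 scalings. With limma-voom on recovered fragments 3 tRNAs rose. The GC correction, chosen after seeing the data, gave 51 listed genes higher and 26 lower, and with the replicate block 49 and 22. With the replicate block alone, 16 mitochondrial genes were called (9 mRNAs lower, 7 tRNAs higher) and 4 listed genes fell. Same-numbered libraries did not deviate together (correlations 0.269, 0.118 and -0.357). Because deviations followed GC content, these correlations cannot show whether libraries were paired. The labels state no pairing, so the numbers were not taken as pairs. Leaving out each library in turn gave 9 to 14 mitochondrial calls, 5 to 9 mRNAs lower, 3264 to 5725 calls over all genes, 14 to 37 listed genes higher and 3 to 10 lower, with MT-RNR1 from -0.0443 to 0.161 and MT-ND5 from -0.0655 to 0.0230. The lowest of the mitochondrial counts came without CuB 2, and leaving out a library leaves 2 in its group. Except where stated, the cause of each change was not tested. Most tRNAs held under 30 fragments per library, and their counting error is wide.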
